A study of Bos taurus with 32 samples.

Results

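ITIH4, LBP, A2M and FGB, 4 liver genes that encode positive acute phase plasma proteins, were followed in dairy cows around calving. They are 4 of the 9155 genes that the array annotation names, and 5 of the 24016 probe sets tested carry their symbols: FGB has 2 probe sets and the others have 1 each. The genes had been selected from these same arrays because their values were higher at 1 d than on the other days. Changes of the 4 genes between days are therefore given as description, without a p-value. Tests of the 4 genes are kept to diet and to the variation between cows within a day, which the selection did not use. For genes of the lists set beside them, limma p-values of day changes are given. Those lists were also drawn up with earlier results of these arrays known, so such p-values are no independent evidence.

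Liver biopsies came from Ayrshire cows (Bos taurus) fed for 6 weeks before their expected calving date on a diet of either controlled (CON) or high (HIGH) energy. Biopsies taken 8 d ahead of the expected date are called -8 d, and those taken after the true calving date are called 1 d and 9 d. The data hold 32 Affymetrix arrays from 12 cows, 6 per diet, with 5 CON and 5 HIGH arrays at -8 d, 4 CON and 6 HIGH at 1 d, and 6 CON and 6 HIGH at 9 d. Of the 12 cows, 3 CON and 5 HIGH cows had an array on all 3 days. Because every cow calved and began lactation, the day contrast joins calving, milk production, feeding after calving and time, and these cannot be told apart; there was no group that did not calve. Each biopsy was bulk tissue, in which fewer cells of a type and less RNA per cell cannot be told apart.

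The acute phase response is the change in plasma proteins that the liver makes when inflammation is signalled to it, mainly by interleukin 6, interleukin 1 and glucocorticoids. Proteins whose plasma concentration goes up are called positive acute phase proteins, and haptoglobin (HP) and serum amyloid A are the best known in cattle. ITIH4 is a heavy chain-like member of the inter-alpha-trypsin inhibitor family, LBP binds bacterial lipopolysaccharide and hands it to CD14, A2M is a broad protease inhibitor that traps proteases, and FGB is the beta chain of fibrinogen, the precursor of fibrin clots.

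The arrays were of similar scale, with medians of 5.87 to 5.935 on the log2 scale and values from 2.35 to 15. The 14 hepatocyte markers averaged 13.08 at -8 d. They averaged 13.06 at 1 d and 13.10 at 9 d, so these markers of the labelled tissue were high on every day. The 8 neutrophil markers measured averaged 5.60 at -8 d (5.35 to 5.85 over arrays), 6.46 at 1 d (6.02 to 7.21) and 5.95 at 9 d (5.61 to 6.39). Of those 8, S100A8, S100A9, S100A12 and LTF rose at 1 d in limma, while MPO, ELANE, MMP9 and CAMP had mean levels of 5.16, 3.65, 4.80 and 4.39 and did not pass the test. The 3' minus 5' probe set difference of elongation factor 1 alpha, a sign of RNA or cRNA quality, averaged -0.68 with an SD of 0.12 over the 10 arrays of -8 d. It averaged -1.07 (SD 0.15, 10 arrays) on 1 d and -0.81 (SD 0.13, 12 arrays) on 9 d. That of GAPDH was 0.54, 0.53 and 0.58 on the same days. For actin it was 1.60 (SD 0.27), 1.61 (SD 0.23) and 1.78 (SD 0.70). The highest actin difference was 3.87 in an array of 9 d, against 2.20 at -8 d and 1.92 at 1 d. The part of that array in the 9 d results was not tested. Over all genes, 16.5% rose and 12.3% fell from -8 d to 1 d in limma at an adjusted p under 0.05, which is the background of the marker counts. Of the markers of other cells, 1 of 9 Kupffer cell markers rose and 1 fell at 1 d, as did 0 and 6 of 14 T and NK cell markers, 0 and 0 of 4 B cell markers, 0 and 0 of 6 erythroid markers, 1 and 2 of 11 stellate cell markers, 1 and 1 of 11 endothelial markers and 0 and 2 of 7 bile duct markers. Of the hepatocyte markers 4 rose and 7 fell. The neutrophil markers and the elongation factor difference moved on the day on which the 4 genes were high, and their part in those values was not tested.

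ITIH4 was highest at 1 d in all 10 cows that had an array on that day. At -8 d the CON cows 445, 477, 483, 527 and 528 had log2 values of 13.03, 12.17, 12.40, 12.61 and 12.48. The HIGH cows 432, 439, 460, 462 and 529 had 12.75, 12.32, 12.30, 12.38 and 12.75 on that day. At 1 d the CON cows 445, 477, 483 and 510 had 14.11, 13.96, 13.85 and 13.81. The diets overlapped before calving, and the lowest of these 1 d values was above the highest -8 d value of either diet. The 6 HIGH cows ran from 13.97 over a median of 14.20 to 14.34 at 1 d. At 9 d the CON cows ran from 12.06 over a median of 12.46 to 13.02. The 6 HIGH cows at 9 d lay within 12.65 to 12.77, with a median of 12.69. No 1 d array overlapped an array of another day in either diet, and the HIGH cows came back to nearly the same value at 9 d, with an SD of 0.04 against 0.33 in CON. Selection for high 1 d values favours such separation between days, here and in the genes below. The share of all probe sets that separate in this way is not given.

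Within cows, the ITIH4 difference from -8 d to 1 d was positive in 8 of 8, ran from 1.08 to 2.02 and averaged 1.56 ± 0.28 (SD), which is 2.96-fold. The smallest difference was that of cow 445, which had the highest value before calving. From 1 d to 9 d the ITIH4 difference was negative in 10 of 10 and averaged -1.49 ± 0.19. At 9 d it stood above the -8 d value in 6 cows and below it in 4, with a mean difference of 0.08 ± 0.26. Over all arrays the fitted change, averaged over the diets, was 1.53 (SE 0.09) from -8 d to 1 d and -1.46 (SE 0.08) from 1 d to 9 d. In order of size this was number 24 among the rises and number 11 among the falls of the 9155 genes.

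LBP differed widely between cows. At -8 d the CON cows 445, 477, 483, 527 and 528 had 12.42, 10.55, 10.36, 11.61 and 11.70. The HIGH cows 432, 439, 460, 462 and 529 had 10.30, 10.93, 11.31, 10.07 and 11.51. The CON cows 445, 477, 483 and 510 had 13.16, 12.18, 12.85 and 12.51 at 1 d. The lowest CON value at 1 d lay below the highest CON value at -8 d, so the CON groups of these days overlapped. The HIGH cows ran from 12.47 over a median of 12.96 to 13.69 at 1 d, all above the HIGH values of the other days. At 9 d the CON cows ran from 9.88 over a median of 11.18 to 12.88, and the HIGH cows from 10.72 over 11.46 to 11.99. On the same day, cows differed in LBP by up to 5.10-fold at -8 d, 2.85-fold at 1 d and 8.00-fold at 9 d. Of the 4 genes, LBP had the widest range at -8 d and 9 d, and A2M, at 3.48-fold, had the widest at 1 d.

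LBP was higher at 1 d in each cow although the groups overlapped. The difference from -8 d to 1 d was positive in 8 of 8 cows and averaged 2.04 ± 0.81, or 4.11-fold. It was 0.74 in cow 445, the smallest, and 3.2 in cow 462, the largest. These were the cows with the highest and the lowest LBP before calving, a value that also enters the difference. From 1 d to 9 d LBP was lower in 10 of 10 cows, by -0.82 in cow 460 to -2.30 in cow 477. At 9 d all 5 HIGH cows with both arrays were above their own -8 d value, by 0.34 to 1.19, whereas 2 of 5 CON cows were above and 3 below. The test of that difference between diets did not pass: HIGH minus CON in the change from -8 d to 9 d was 0.62, with a 95% interval of -0.38 to 1.63 and a limma adjusted p of 1.00. The fitted LBP change was 1.83 (SE 0.26) from -8 d to 1 d, number 14 in size of rise, and -1.58 (SE 0.25) from 1 d to 9 d, number 9 in size of fall.

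A2M was the gene in which the diets lay furthest apart at 1 d. At -8 d the CON cows 445, 477, 483, 527 and 528 had 11.94, 11.51, 11.39, 11.41 and 12.49. The HIGH cows 432, 439, 460, 462 and 529 had 12.57, 11.45, 11.35, 11.72 and 11.97. The CON cows 445, 477, 483 and 510 had 12.92, 12.36, 12.84 and 12.08 at 1 d. Of those CON values, 2 were inside the range of the CON values at -8 d and 2 were above it. The 6 HIGH cows ran from 12.78 over a median of 13.42 to 13.88 at 1 d. At 9 d the CON cows ran from 11.14 over 11.61 to 12.43, and the HIGH cows from 11.78 over 12.03 to 12.41. At 1 d, 5 of 6 HIGH cows were above 12.92, the highest CON value of any day, and cow 460 was below it.

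Within cows the A2M difference from -8 d to 1 d was positive in 8 of 8 and averaged 1.34 ± 0.32, or 2.54-fold, with a range of 0.85 in cow 477 to 1.90 in cow 439. The A2M difference from 1 d to 9 d was negative in 10 of 10 cows and ran from -0.37 in cow 460 to -1.70 in cow 529. At 9 d A2M was above the -8 d value in 6 cows and below it in 4. The fitted change was 1.21 (SE 0.16) to 1 d and -1.10 (SE 0.15) from 1 d to 9 d. By size, these were number 36 among the rises and number 27 among the falls of all genes.

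FGB had the smallest fitted difference between -8 d and 1 d of the 4 genes, and most cows ended below their starting value. At -8 d the CON cows 445, 477, 483, 527 and 528 had 11.88, 11.44, 11.14, 11.74 and 11.76. The HIGH cows 432, 439, 460, 462 and 529 had 11.19, 11.11, 11.33, 11.29 and 11.38. The CON cows 445, 477, 483 and 510 had 12.64, 11.88, 12.03 and 11.89 at 1 d. Before calving the HIGH cows lay close together, with an SD of 0.11 against 0.30 in CON. The 6 HIGH cows ran from 12.09 over a median of 12.53 to 12.75 at 1 d. At 9 d the CON cows ran from 10.58 over 11.10 to 12.18, and the HIGH cows from 10.75 over 10.94 to 11.50. The HIGH groups of 1 d and of the other days did not overlap, while those of CON did.

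Within cows the FGB difference from -8 d to 1 d was positive in 8 of 8 and averaged 1.07 ± 0.40, or 2.10-fold. The HIGH cows 432, 439, 460, 462 and 529 differed by 1.13, 1.64, 0.89, 1.44 and 1.36, and the CON cows 445, 477 and 483 by 0.76, 0.44 and 0.89. The HIGH differences were thus equal to or above the largest CON difference. From 1 d to 9 d FGB was lower in 10 of 10 cows, by -0.24 in cow 510 to -2.0 in cow 439. Unlike the other 3 genes its 9 d value was below the -8 d value in 8 of 10 cows, with a mean difference of -0.33 ± 0.43; that ITIH4, LBP and A2M differ from FGB in this was not tested. The fitted change was 0.88 (SE 0.15) to 1 d, -1.19 (SE 0.14) from 1 d to 9 d and -0.30 (SE 0.14) from -8 d to 9 d. By size, it was number 88 among the rises to 1 d and number 20 among the falls that followed.

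The second FGB probe set did not share this course. It read 4.00 to 4.83 over the 32 arrays, and its fitted changes were -0.07 (SE 0.07) to 1 d and 0.04 (SE 0.07) from 1 d to 9 d. The pair of probe sets therefore disagreed, and the FGB values above and below are those of the brighter, whose mean was 11.59. The second had a mean of 4.30, with 26.2% of all probe sets below it. A flat course at so low a level does not show that FGB mRNA was unchanged.

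**Figure D1:**
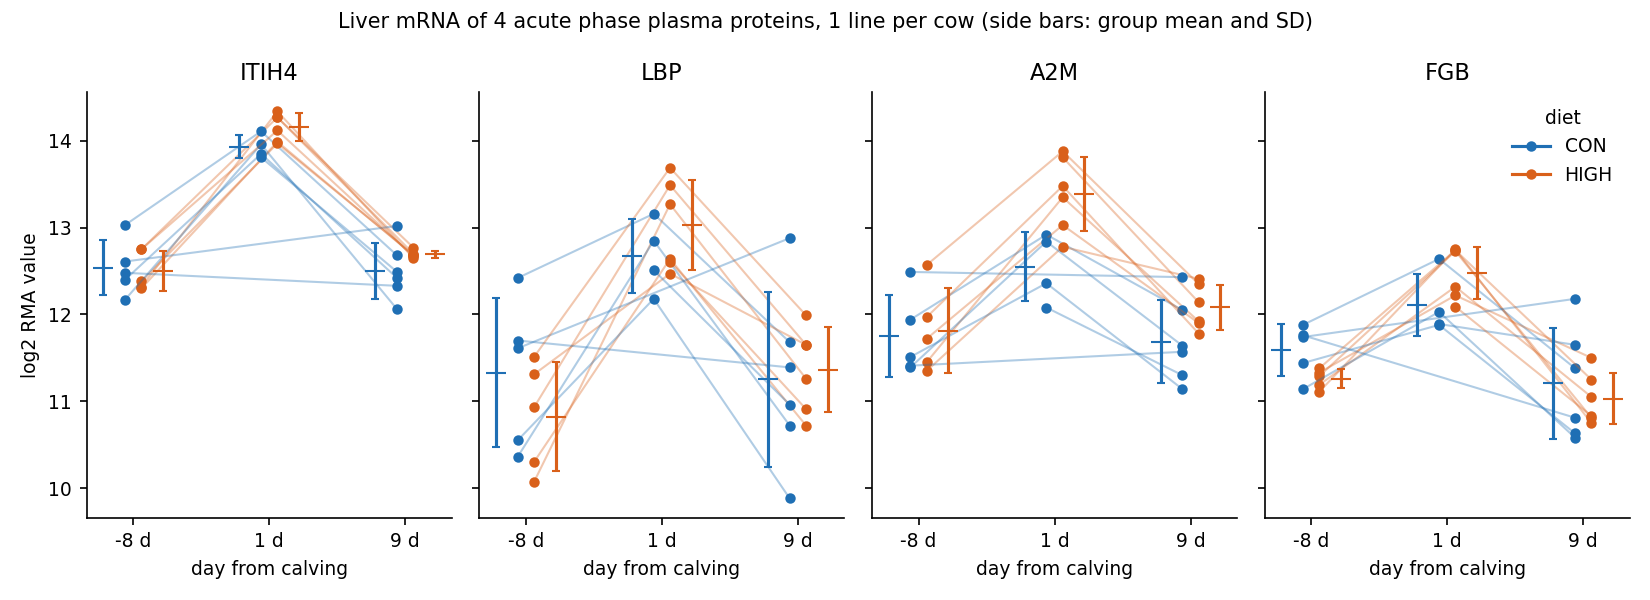
Log2 RMA values of ITIH4, LBP, A2M and FGB (vertical axis) by day from calving (horizontal axis), with a point per array, a line joining the arrays of a cow, and side bars for the mean and SD of each diet group. All 8 lines from -8 d to 1 d go up and all 10 from 1 d to 9 d go down; the range over cows is widest for LBP at -8 d and 9 d and for A2M at 1 d.

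The design sets HIGH against CON on each of the 3 days, and the selection of the 4 genes did not use diet. In limma with cow as a random block, 0 of the 5 probe sets differed between diets on any day after Benjamini-Hochberg adjustment over all probe sets. Over all 24016 probe sets the calls were few as well: 0% at -8 d, 0.00416% (1 probe set) at 1 d and 0% at 9 d. At an unadjusted p under 0.05, 0 of the 5 differed at -8 d, 1 at 1 d and 0 at 9 d, where 4.27%, 8.38% and 3.39% of all probe sets did.

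That 1 probe set was A2M. At 1 d its mean was 13.39 ± 0.43 (SD, n = 6) in HIGH and 12.55 ± 0.40 (n = 4) in CON. The fitted difference was 0.81 (SE 0.24), or 1.75-fold, with a 95% interval of 0.31 to 1.30, an unadjusted limma p of 0.00246 and an adjusted p of 0.385. An exact two-sided permutation of the cows between diets, over 210 arrangements, gave p = 0.0286. This is among 15 such tests, of 5 probe sets on 3 days, and is not adjusted for them. The limma adjusted p ran from 0.267 to 0.780 over 21 fits, the main fit included, and the difference from 0.60 to 0.93. So HIGH cows had the higher mean A2M at 1 d in every fit tried, but the difference did not pass the threshold over all probe sets.

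The A2M difference between diets was 0.10 before calving (95% interval -0.39 to 0.59) and 0.40 at 9 d (-0.05 to 0.84), with adjusted p of 1.00 on both days. ITIH4 in HIGH minus CON was -0.03 (-0.30 to 0.24) at -8 d, 0.22 (-0.06 to 0.49) at 1 d and 0.19 (-0.05 to 0.44) at 9 d. The exact permutation p for ITIH4 at 1 d, again not adjusted, was 0.0381, while its limma adjusted p was 0.701. These intervals allow an ITIH4 difference of up to 0.49 at 1 d, so that equal levels in the diets were not shown.

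For LBP the difference was -0.51 (-1.30 to 0.28) at -8 d, 0.28 (-0.53 to 1.09) at 1 d and 0.11 (-0.61 to 0.84) at 9 d. The LBP intervals were the widest of the 4 genes on each day and allow differences in either direction. FGB gave -0.35 (-0.80 to 0.10), 0.34 (-0.12 to 0.80) and -0.17 (-0.58 to 0.24) on the 3 days. In FGB the lower mean of HIGH before calving turned into a higher mean at 1 d, and neither difference passed (limma adjusted p 1.00 and 0.721).

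Whether the day changes differed between diets was tested with interaction contrasts. None of the 5 probe sets passed limma's adjusted threshold in the change from -8 d to 1 d, from -8 d to 9 d or from 1 d to 9 d, and of all probe sets 0%, 0% and 0% did. At an unadjusted p under 0.05, 2 of the 5 passed for -8 d to 1 d, where 7.17% of all probe sets did, and 0 passed in the other contrasts.

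Those were FGB and A2M. The fitted FGB change was 1.23 (SE 0.20) in HIGH and 0.54 (SE 0.22) in CON, a difference of 0.69 with a 95% interval of 0.08 to 1.29, a limma p of 0.0268 and an adjusted p of 0.669. The fitted A2M change was 1.56 (SE 0.21) in HIGH and 0.86 (SE 0.24) in CON, a difference of 0.71 (0.05 to 1.37) with p 0.0359 and adjusted p 0.688. For LBP the fitted changes were 2.23 (SE 0.35) and 1.43 (SE 0.39), and for ITIH4 1.66 (SE 0.12) and 1.41 (SE 0.13), with adjusted p of 0.791 and 0.814 for the differences. All 4 fitted changes to 1 d were larger in HIGH, and 0 of the 4 passed the adjusted test. Over all 24016 probe sets, limma called 2090 rises and 1892 falls to 1 d in HIGH, and 799 and 724 in CON. Such counts also depend on the number of arrays, which at 1 d was 6 in HIGH and 4 in CON. They therefore do not show larger changes in HIGH over all probe sets. Whether larger changes in HIGH are particular to the 4 genes was not tested.

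**Figure D2:**
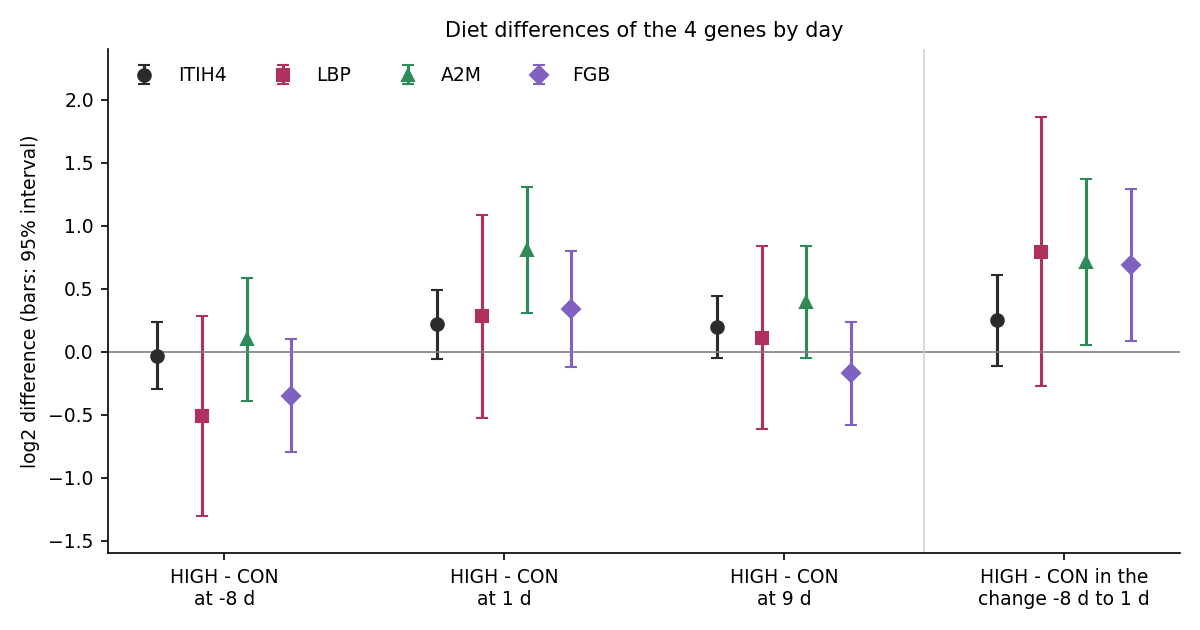
Fitted HIGH minus CON difference in log2 units (vertical axis) with 95% intervals for ITIH4, LBP, A2M and FGB on each day, and at the right the difference between diets in the change from -8 d to 1 d. The interval of A2M at 1 d, 0.31 to 1.30, and those of A2M and FGB at the right exclude 0 before adjustment for the number of probe sets.

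The 4 genes were next set against each other and against HP and SAA3 over the cows of a day, after subtracting the diet mean. Of 42 such relations, 10 had an unadjusted permutation p under 0.05 and 7 passed Benjamini-Hochberg adjustment over the 42. All 7 lay among LBP, FGB, ITIH4 and HP, and 0 of them included A2M or SAA3. Without subtracting the diet mean, so that diet differences enter r, 3 passed: HP with LBP at -8 d, LBP with FGB at 1 d, and ITIH4 with A2M at 1 d (r = 0.84 over 10 cows, permutation adjusted p = 0.0477), which is not among the 7. Cow 445 at -8 d and cow 527 at 9 d had the highest values of several genes, although Dixon's test flagged 0 of the 30 groups of arrays examined, and the relations they enter are also given without them.

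Before calving, HP differed widely between cows. HP was 14.10, 8.58, 7.70, 10.37 and 12.38 in the CON cows 445, 477, 483, 527 and 528 and 8.08, 7.23, 9.95, 9.10 and 13.68 in the HIGH cows 432, 439, 460, 462 and 529. Cow 445 had the highest value of 10 for HP, SAA3, ITIH4, LBP and FGB at -8 d. Its LBP of 12.42 compares with 10.07 to 11.70 in the other 9 cows, and its FGB of 11.88 with 11.11 to 11.76. Its A2M of 11.94 was inside the range of the others, 11.35 to 12.57.

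Cows with more HP mRNA before calving also had more LBP and FGB mRNA. HP and FGB gave Pearson r = 0.83 and Spearman rho = 0.89 over 10 cows (permutation p = 0.0024, adjusted p = 0.0336), and r = 0.89 without the cows farthest in HP, 445 and 529. HP and LBP gave r = 0.82 and rho = 0.89 (permutation p = 0.00427, adjusted p = 0.0359), and r = 0.68 without the same pair of cows. LBP and FGB gave r = 0.80 and rho = 0.85 (permutation p = 0.00384, adjusted p = 0.0359), and r = 0.68 without the cows farthest in LBP, 477 and 483. With cow 445 alone left out, these r values were 0.77, 0.74 and 0.73, and none of the 42 relations then passed adjustment. With each of the 10 cows left out in turn, HP with FGB passed adjustment in 7 cases, HP with LBP in 3 and LBP with FGB in 4. Of all other genes, 0.535% had an r with HP as high as that of FGB at -8 d and 0.655% as high as that of LBP. HP with ITIH4 (r = 0.67, permutation p = 0.0348, adjusted p = 0.162) and HP with A2M (r = 0.39) did not pass.

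At 1 d the HP values lay within 14.78 to 14.95, at the upper end of the array scale, and HP passed with none of the 4 genes. LBP and FGB were related on that day as well, with r = 0.89 and rho = 0.92 over 10 cows (permutation p = 0.00082, adjusted p = 0.0336) and r = 0.90 without the cows farthest in LBP, 460 and 529. Leaving out each cow in turn kept that r within 0.88 to 0.92, and the relation passed adjustment in 7 of these 10 cases. Of all genes, 0.688% had an r with LBP as high as that of FGB. The cows with the highest LBP, 529, 439, 462 and 445, were also those with the highest FGB. ITIH4 and A2M had r = 0.71 at 1 d (permutation p = 0.0268, adjusted p = 0.141), and A2M had r of 0.20 with LBP and 0.15 with FGB.

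At 9 d cow 527 had the highest ITIH4, LBP, FGB and HP of the 12 cows, with LBP at 12.88 against 9.88 to 11.99 in the others and FGB at 12.18 against 10.58 to 11.65. Its LBP also had the largest difference from -8 d to 9 d of any cow, 1.27, and its A2M of 11.57 was inside the range of the others. Cow 527 had no array at 1 d. Its course through calving is thus unknown.

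ITIH4 and FGB gave r = 0.78 and rho = 0.68 at 9 d (permutation p = 0.00234, adjusted p = 0.0336), and r = 0.47 without the cows farthest in ITIH4, 477 and 527. ITIH4 and LBP gave r = 0.80 but rho = 0.35 (permutation p = 0.00652, adjusted p = 0.0391), and r = 0.04 without the same pair. LBP and FGB gave r = 0.73 and rho = 0.61 (permutation p = 0.00636, adjusted p = 0.0391), and r = 0.35 without the cows farthest in LBP, again 477 and 527. Leaving out the 2 extremes of a gene narrows its range. With cow 527 alone left out, the r values were 0.55 for ITIH4 with FGB, 0.55 for ITIH4 with LBP and 0.48 for LBP with FGB. None of these relations at 9 d then passed adjustment. With each of the 12 cows left out in turn, ITIH4 with FGB passed adjustment in 8 cases, and each of the others in 4. Of all genes, 2.12% had an r with LBP as high as that of FGB at 9 d, and 1.01% as high as that of ITIH4. HP and SAA3 passed with none of the 4 genes at 9 d.

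**Figure D3:**
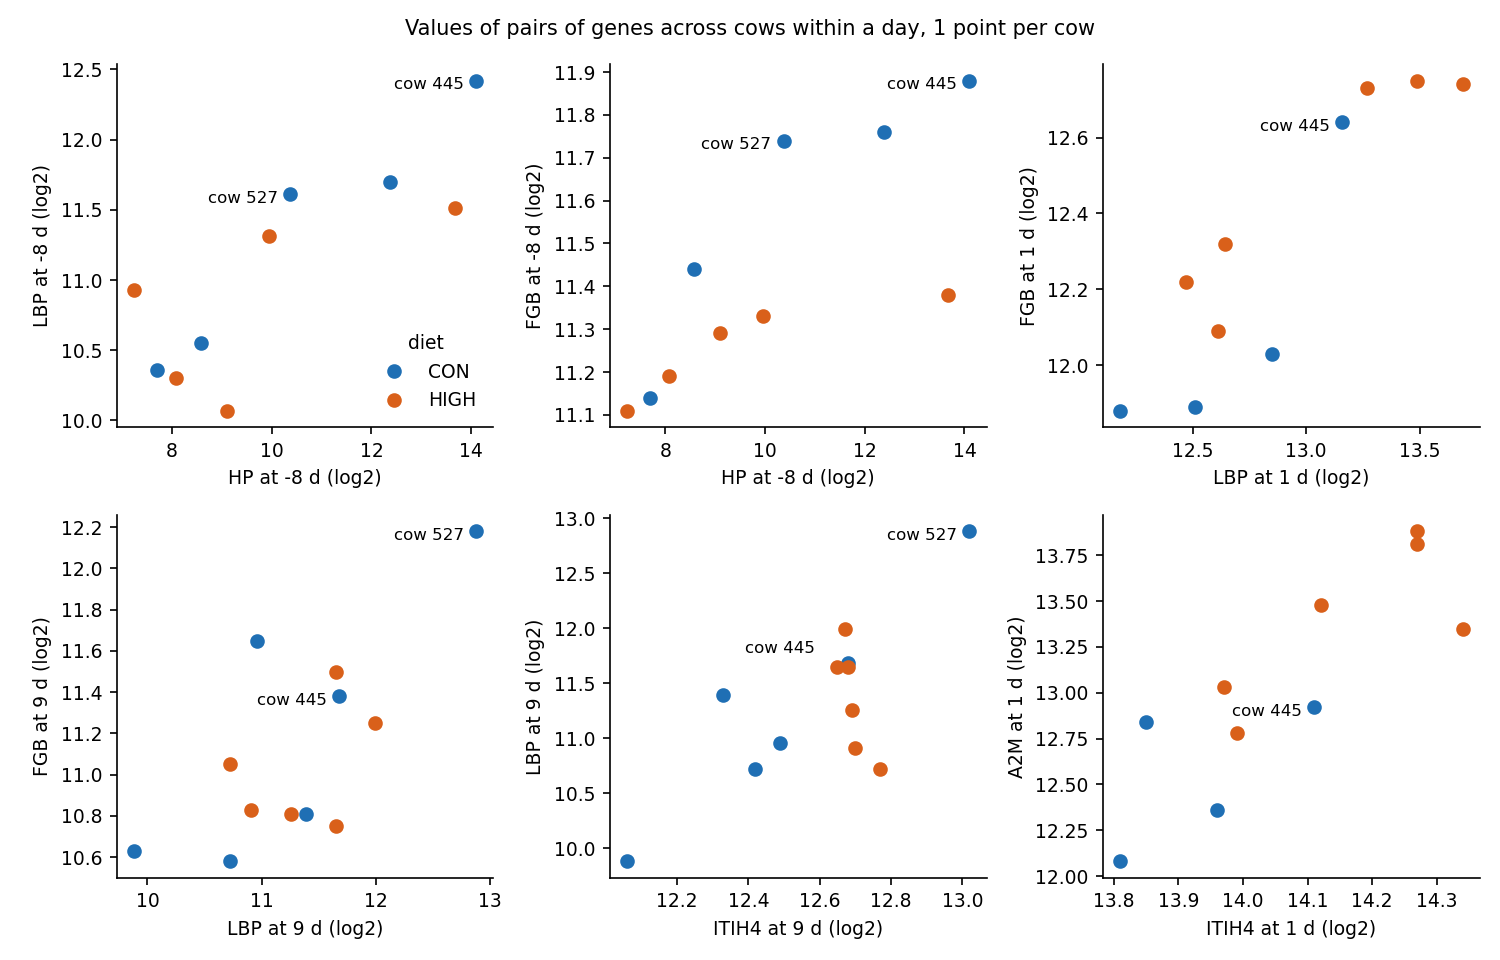
Log2 values of pairs of genes within a day (both axes), with a point per cow coloured by diet and cows 445 and 527 named. The upper row shows HP with LBP and HP with FGB at -8 d and LBP with FGB at 1 d; the lower row shows LBP with FGB and ITIH4 with LBP at 9 d, where cow 527 lies alone at the top right, and ITIH4 with A2M at 1 d. Values are drawn before the diet means were subtracted.

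The relatives and partners of each gene showed how far the course was shared. Among all 9155 genes, 16.5% rose and 12.3% fell from -8 d to 1 d in limma at an adjusted p under 0.05, 7.44% rose and 10% fell from 1 d to 9 d, and 7.79% rose and 5.08% fell from -8 d to 9 d. The median change of all genes was 0.00 to -0.01 in each.

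Of the inter-alpha-trypsin inhibitor family besides ITIH4, 1 of 5 measured genes rose and 2 fell from -8 d to 1 d, with a median of -0.13. ITIH3, which encodes another heavy chain, rose by 0.71 (SE 0.18, limma adjusted p 0.00433) and was still 0.68 above -8 d at 9 d (adjusted p 0.00835). Unlike ITIH4 it kept that level, with a change of -0.03 from 1 d to 9 d. ITIH2 fell by 0.43 (SE 0.06, adjusted p 1.2e-06). AMBP, whose product is cut into bikunin and alpha-1-microglobulin, fell by 0.19 (SE 0.03, adjusted p 8.1e-06). Both were lower at 1 d in 8 of 8 cows. ITIH1 changed by -0.13 (adjusted p 0.0519), and TNFAIP6, which transfers heavy chains to hyaluronan, by 0.15 (adjusted p 0.122).

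Of the genes that recognise lipopolysaccharide or pass its signal on, 3 of 10 rose and 1 fell besides LBP, with a median of 0.00. CD14 and TLR4, the receptors that LBP serves, did not rise. CD14, the next acceptor of lipopolysaccharide, fell by 0.38 (SE 0.12, limma adjusted p 0.0258), in 7 of 8 cows. TLR4 changed by -0.08 (adjusted p 0.494) and the adaptor MYD88 by -0.07 (adjusted p 0.329). Downstream, the kinase IRAK1 rose by 0.60 (SE 0.10, adjusted p 4.5e-05), in 8 of 8 cows. IRAK4 rose by 0.18 and the adaptor TICAM2 by 0.21 (adjusted p 0.00935 and 0.0187). TLR2, BPI, TRAF6 and CD180 did not pass, with changes of 0.00, -0.01, 0.13 and -0.25. From 1 d to 9 d 0 of the 10 rose and 3 fell (IRAK1, TICAM2 and TRAF6).

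Of the complement proteins related to A2M and the chaperone of its receptor, LRPAP1, 2 of 4 measured genes rose and 1 fell, with a median of 0.19. LRPAP1 rose by 0.33 (SE 0.06, limma adjusted p 6.7e-05) and complement C5 by 0.22 (SE 0.06, adjusted p 0.00512). Complement C3 fell by 0.09 (SE 0.03, adjusted p 0.00929), and C4A changed by 0.15 (adjusted p 0.0946). The C3 probe set averaged 14.59 on a scale that ends at 15.

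Among clotting and fibrinolysis genes besides FGB, 6 of 17 rose and 7 fell from -8 d to 1 d, with a median of -0.05. FGG, the gamma chain of fibrinogen, rose by 0.10 (SE 0.03, limma adjusted p 0.0085) and fell by 0.16 from 1 d to 9 d (adjusted p 8.0e-05), in 8 of 8 and 10 of 10 cows. FGG averaged 14.67, near the upper end of the scale, so its change cannot be set beside that of FGB. Clotting factor V, F5, rose by 0.41 (SE 0.06, adjusted p 3.3e-06). SERPIND1, heparin cofactor II, fell by 0.55 (SE 0.06, adjusted p 4.4e-08). SERPINF2, the inhibitor of plasmin, rose by 0.44 (SE 0.06, adjusted p 1.6e-06), although its other probe set was called in the opposite direction.

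**Figure D4:**
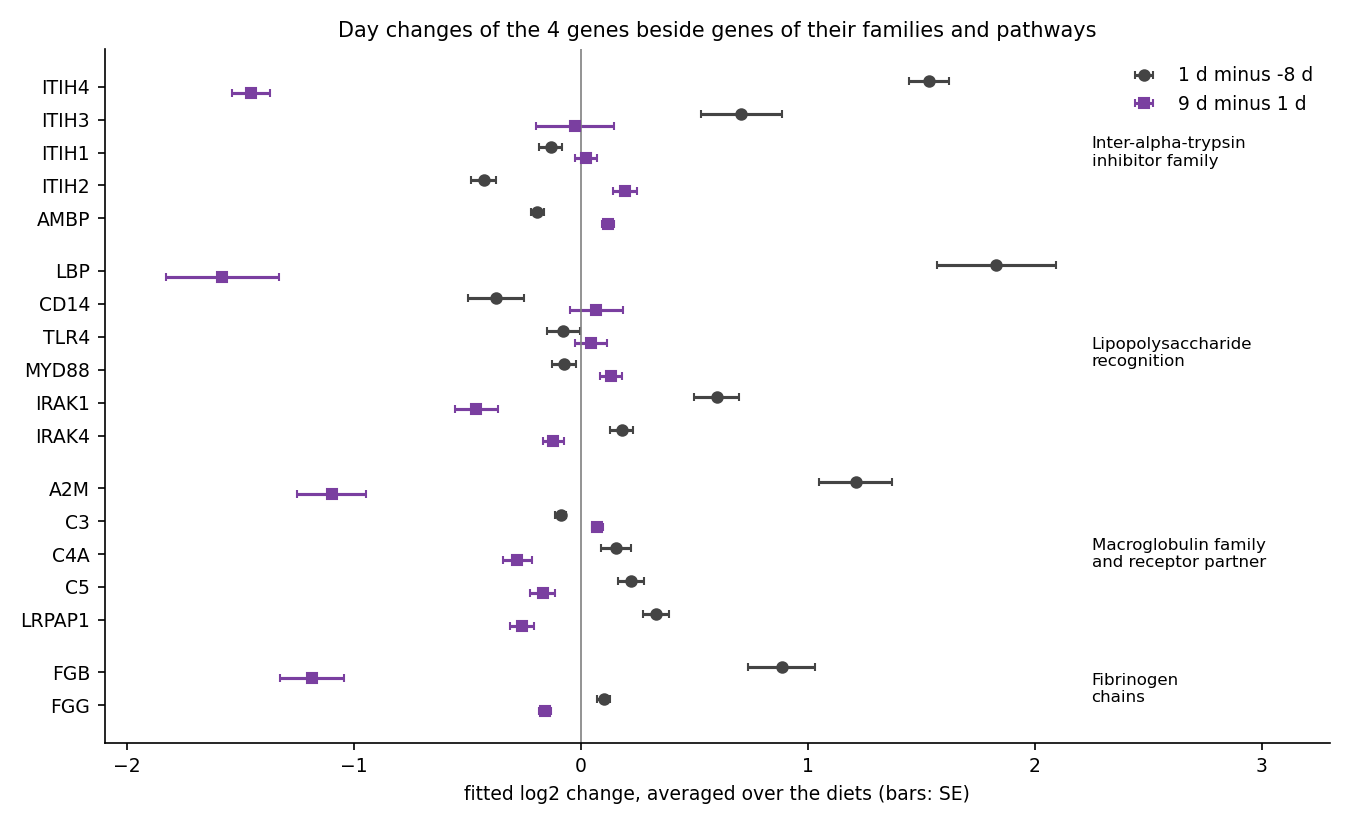
Fitted log2 change with SE (horizontal axis) from -8 d to 1 d (circles) and from 1 d to 9 d (squares), averaged over the diets, for ITIH4, LBP, A2M and FGB and genes of their families and pathways (vertical axis). The 4 genes lie at 0.88 to 1.83 and at -1.10 to -1.58, and most relatives lie closer to 0.

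Of 23 genes of interleukin 6 and interleukin 1 signalling, which act on acute phase genes, 3 rose and 3 fell from -8 d to 1 d, with a median of 0.06. These counts are close to the shares of all genes, 16.5% and 12.3%. The transcription factor CEBPB rose by 0.44 (limma adjusted p 0.000417) and NFKBIZ, a nuclear partner of NF-kappa-B, by 0.57 (adjusted p 0.00379). NFKBIA, the inhibitor of NF-kappa-B, fell by 0.67 (adjusted p 0.00349) and CEBPD by 0.33 (adjusted p 0.00397). The others, named after their values were seen, were STAT3, the transcription factor that interleukin 6 activates, which rose by 0.29 (adjusted p 0.0494), and the receptor gene IL6R, which fell by 0.27 (adjusted p 0.0223). Of 4 hepatocyte nuclear factors, 3 rose and 0 fell, namely FOXA3 by 1.06, HNF4A by 0.50 and HNF4G by 0.30 (adjusted p 0.00254, 0.00623 and 0.00538), and 3 fell from 1 d to 9 d. Of 11 glucocorticoid response genes, 2 rose and 5 fell, with a median of -0.22. MT1A, a metallothionein, rose by 3.38, and so did MT2A, by 1.84; SERPINA6, the plasma carrier of cortisol, fell by 2.21 (adjusted p 1.4e-06, 2.4e-05 and 6.6e-07). HSD11B1, which regenerates cortisol, fell by 0.53 and ZFP36 by 0.99 (adjusted p 4.7e-08 and 1.9e-06), as did DUSP1 and NFKBIA. MT2A and DUSP1 were named after their values were seen.

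Of 20 other positive acute phase genes, 10 rose and 0 fell from -8 d to 1 d, with a median of 0.24, and 0 rose and 11 fell from 1 d to 9 d. S100A8, S100A9 and S100A12 are among those that rose and then fell, and were also counted above as neutrophil markers. SAA3 rose by 2.64 (limma adjusted p 2.9e-07). HP rose by 4.84 as measured (adjusted p 3.4e-06), but its 1 d values of 14.78 to 14.95 lay at the end of the scale, so the size of its change to 1 d is not resolved. HP was still 2.50 above its -8 d level at 9 d (adjusted p 0.00932), and was higher in 8 of 10 cows and lower in 2. The fitted changes of ITIH4, LBP, A2M and FGB from -8 d to 9 d were 0.08, 0.25, 0.11 and -0.30. Those of SAA3 and SAA4 were 0.40 and -0.31, and neither passed (limma adjusted p 0.450 and 0.285). Of 13 genes whose proteins are lowered in the acute phase, 1 rose and 10 fell to 1 d, with a median of -0.16; transthyretin (TTR) fell by 0.32 and IGFALS, which holds insulin-like growth factors in plasma, by 1.60 (adjusted p 5.6e-08 and 9.0e-08). The gene of that list that rose was APOA1, by 0.80 (adjusted p 0.000161), named after its value was seen. These lists were drawn up with earlier results of these arrays in view, so that their counts are no independent evidence of direction.

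The genes whose values ran most closely with each of the 4 over the 32 arrays were found by Pearson r, given as description because arrays share cows and days. For ITIH4 they were SEC11C (r = 0.93), RPN2 (0.92), PRDX4 (0.91), STT3B (0.91) and GPX3 (0.91). SEC11C is a subunit of the signal peptidase, RPN2 and STT3B belong to the oligosaccharyltransferase, and PRDX4 is a peroxiredoxin of the endoplasmic reticulum. For LBP they were NUCB2 (0.91), SERP1 (0.91), SLA2 (0.90), HSP90B1 (0.90) and FKBP7 (0.90), of which HSP90B1 is a chaperone of the endoplasmic reticulum. For A2M they were SERPINF2 (0.84), ITIH4 (0.84), S100A8 (0.81), SMPD1 (0.81) and IKBIP (0.81), and for FGB they were FGG (0.95), SAA4 (0.89), RFLNA (0.87), MAGT1 (0.87) and SERPINF2 (0.87). The list of A2M thus held ITIH4, and that of FGB held the other fibrinogen chain measured, as the gene with the highest r of all. Among the 4 genes themselves r over the 32 arrays ran from 0.66, for A2M with FGB, to 0.86, for LBP with FGB.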

How the data were processed

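The deposited log2 expression values were computed by the authors using RMA in Affymetrix Expression Console 1.1, per the submitters' processing notes; further RMA settings: not given in the sources used here. RMA gives all arrays the same distribution, so that a change is measured against most other probe sets, and very bright probe sets have little room to rise. RNA was extracted on RNeasy Mini columns from a few milligrams of biopsy, per the labels' protocols. Precision is limited by the number of arrays.

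The table holds 24128 probe sets; 112 are controls, and the remaining 24016 were all tested, whatever their level. Gene symbols came from the array annotation: 13292 probe sets had 1 symbol, for 9155 genes. Of these probe sets, 13263 had a gene identifier that was found in the RefSeq gene table. A gene was represented by its probe set with the highest mean. No sequence or genome position of the 4 genes was used.

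Differences were fitted with limma 3.58.1 in R 4.3.3 over 6 diet-by-day groups, with cow as a block by duplicateCorrelation (consensus correlation 0.138), a mean-variance trend and two-sided Benjamini-Hochberg adjustment over all probe sets at 0.05. Cow numbers in the labels pair the arrays; the replicate numbers of the titles do not mark cows. Labels do not say whether cows of a diet were penned together, so p-values measure the spread between these cows. Relations across cows used Pearson r and Spearman rho on diet-centred values with 100000 permutations (Python 3.11.15, SciPy 1.17.1). The fit was tested on simulated data. Alternatives were other blocks, only the 8 cows with all 3 days, no trend, robust moderation, array weights, a filter on level, median centring, exact permutation, and leaving out each cow.

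The 4 genes and the lists of 9 pathways and 9 cell types were chosen with earlier results of these data known. Named were all probe sets of the 4 genes, the 5 genes with the highest r to each, the measured genes of the first 3 lists, the fibrinogen chains, HP and SAA3, and up to 4 genes of each other list with the smallest p from -8 d to 1 d. The design text names more cows than the 12 analysed here.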

Additional observations from a re-analysis of the deposited data

How the results depend on the processing

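None of the 5 probe sets was called for diet or for diet by time in any alternative fit: the count was 0 with no replicate block, with a block by the title numbers, with cow as a fixed block (diet by time alone, since a cow has 1 diet), and in the other fits. The 4 rises to 1 d and falls to 9 d kept their direction in all of them; the mean rise of the 4 genes ran from 1.33 to 1.42. Of 42 relations across cows, 7 passed; 3 passed without centring on diet, of which ITIH4 with A2M at 1 d was not among the 7, 4 with Spearman rho, and 0 without the 2 farthest cows. Leaving out each cow in turn (chosen after seeing the data) gave 0 to 8: 0 without cow 445 or 460, 1 without 477, 2 without 527, 3 without 483 or 529, and 8 without 510.

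Some small diet differences changed sign, none of them past the threshold in any fit; the cause was not tested. ITIH4 at -8 d ran from -0.12 to 0.0901 with each cow left out. The ITIH4 difference between diets in the change from 1 d to 9 d was 0.0159 with cow as a fixed block and 0.14 in the cows with all 3 days, and ran from -0.13 to 0.0668 with each cow left out; for LBP the same were 0.0804, 0.31 and -0.34 to 0.11. LBP at 9 d ran from -0.16 to 0.44. A2M at -8 d was -0.0298 with array weights and ran from -0.0862 to 0.28. FGB at 9 d was 0.21 in the cows with all 3 days and ran from -0.30 to 0.0217. Probe sets near the top of the scale (HP at 1 d, FGG and C3) limit what brightness can show, and CON at 1 d has 4 arrays.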
